A study of Mus musculus with 27 samples.

Results

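The macrophage identity genes are a list of 39 genes that macrophages are known for, chosen by name, of which 38 were in the count table of 25192 genes and 1, Clec7a, was not analysed here. They were read in 27 mouse bulk RNA sequencing libraries, 3 in each of 9 groups. Macrophages grown from bone marrow (BMDMs), fibroblasts of mouse embryos (MEFs) and cells labelled mouse aortic endothelial cells (MAECs) were each cultured with imidazole propionate (ImP), a histidine metabolite of gut bacteria, at 10 µg/mL for 1 or 2 h, or left unstimulated, which the series calls 0 h. No group with vehicle alone for 1 or 2 h is labelled, so the effects of ImP and of time cannot be told apart, and no strain, sex or age is given. Nothing in the labels states whether replicates are separate cultures or animals, so p-values here cover the spread among these libraries only, and that spread may be technical. A directional kit was used for BMDM and MEF libraries and a low-input kit for MAEC libraries, after another RNA isolation and at another cell number per well, so kit, isolation and plating cannot be told apart from that cell type. In bulk libraries, fewer cells of a type and less RNA per cell cannot be told apart.

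Macrophage identity is built by the lineage factor PU.1, the product of Spi1, together with C/EBP and MAF family factors, and is kept by signals through the CSF1 receptor. The genes under this control serve recognition and engulfment, through Fc, complement, scavenger and phosphatidylserine receptors, and digestion in a large lysosomal compartment. In atherosclerosis, the setting of the series, macrophages take up lipid and dying cells in the arterial wall.

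Total counts were 28.8 to 35.6 M in the 9 macrophage libraries, 30.6 to 36.5 M in the 9 fibroblast libraries and 19 to 61 M in the 9 libraries labelled aortic endothelial. Levels are CPM, counts divided by the library total in M, with totals scaled over all 27 libraries. In the macrophage libraries the summed level was 19.6 to 43.5 CPM over 11 fibroblast markers, 13.6 to 21.5 CPM over 8 neutrophil markers and 0.366 to 1.45 CPM over 5 dendritic cell markers. Over 13 endothelial markers it was higher, 235 to 281 CPM, with means of 161 CPM for Vwf, 74.3 CPM for Eng and 12.5 CPM for Kdr and the others under 10 CPM. The cells labelled aortic endothelial did not carry the markers of that name. Of the same 13 endothelial markers 1 (Eng, at 102 CPM) reached a mean of 10 CPM and the sum, at 89.4 to 139 CPM, was under that of the macrophage libraries, whereas that level was reached by 9 of 11 markers of fibroblasts and by 5 of 8 of smooth muscle. Of the macrophage genes, 9 overlap an annotated gene on the opposite strand, among them Cebpa, Cebpb, Csf1r, Ctsb and Ctsl. Since the strand of counting is not given, reads of the pair cannot be told apart. Lyz2 and the Fc receptor genes Fcgr3 and Fcgr2b have close paralogs, and their levels are uncertain by the reads that the counting could split between copies.

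Promoter windows from RefSeq (GRCm38.p6, 250 bases before to 50 after the start) were matched for 29 of the 38 genes, 31 windows in all. The core of the PU.1 motif, GAGGAA on either strand, stood in 16 of 31 windows (51.6%), against 27.7% of the 21306 windows of all genes in the count table. The E-box CACGTG, the core read by the MiT/TFE factors that drive lysosomal genes, stood in 2 of 31 windows (6.45%), against 8.35% of those 21306. The promoters of 4 genes are shown as examples with matches, which not all genes of either kind described below held. The genes are an integrin, a cytokine receptor and a complement gene that fibroblasts had at about 0.1% of the macrophage level or less, and a cathepsin that every cell type expressed. They are Itgam (chr7:128062390-128062689, plus strand), Csf2ra (chr19:61228369-61228668, minus strand), C1qb (chr4:136886151-136886450, minus strand) and Ctsd (chr7:142387778-142388077, minus strand). Each runs 5′ to 3′ on the strand of the gene, and capitals mark GAGGAA or its reverse complement in the first 3 and CACGTG in Ctsd.
Itgam: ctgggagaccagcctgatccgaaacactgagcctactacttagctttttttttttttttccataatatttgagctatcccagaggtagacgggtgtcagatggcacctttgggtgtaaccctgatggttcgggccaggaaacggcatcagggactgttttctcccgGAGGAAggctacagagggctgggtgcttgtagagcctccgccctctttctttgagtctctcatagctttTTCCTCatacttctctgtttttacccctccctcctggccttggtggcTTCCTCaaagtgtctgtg
Csf2ra: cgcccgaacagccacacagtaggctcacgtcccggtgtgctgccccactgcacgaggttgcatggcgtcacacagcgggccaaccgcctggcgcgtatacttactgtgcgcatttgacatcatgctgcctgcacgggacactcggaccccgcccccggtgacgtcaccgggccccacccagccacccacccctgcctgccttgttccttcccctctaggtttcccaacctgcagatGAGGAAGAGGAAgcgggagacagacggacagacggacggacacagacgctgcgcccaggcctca
C1qb: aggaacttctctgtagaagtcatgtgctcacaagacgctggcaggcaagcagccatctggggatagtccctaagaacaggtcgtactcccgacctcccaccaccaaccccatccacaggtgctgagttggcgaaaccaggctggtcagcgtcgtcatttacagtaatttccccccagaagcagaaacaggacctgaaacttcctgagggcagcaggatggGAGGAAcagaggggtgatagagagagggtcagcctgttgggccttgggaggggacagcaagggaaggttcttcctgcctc
Ctsd: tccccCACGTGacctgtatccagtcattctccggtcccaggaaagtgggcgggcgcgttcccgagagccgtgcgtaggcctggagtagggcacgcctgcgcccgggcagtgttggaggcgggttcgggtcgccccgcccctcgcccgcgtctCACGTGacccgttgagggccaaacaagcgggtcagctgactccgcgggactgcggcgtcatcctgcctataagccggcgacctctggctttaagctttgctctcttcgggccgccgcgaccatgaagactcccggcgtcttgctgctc
Itgam held 3 matches, Csf2ra 2, C1qb 1 and Ctsd 2. Of the genes at or under 1% of the macrophage level in fibroblasts, 13 of 20 with a window held GAGGAA and 0 held CACGTG. Of those over 1%, 1 of 8 held GAGGAA (Axl) and 2 held CACGTG (Ctsd and Ctsl). Marco, which held GAGGAA, had 0 counts in unstimulated fibroblasts and was placed in neither set, since 3 counts there allow up to 5.45% of its macrophage level. Cd163 and Mertk, which held neither motif, were kept in the set over 1%. Their Poisson intervals also span 1%, from 0.653 to 1.74% and from 0.913 to 1.14%, so their side is uncertain too. These matches are descriptions of letters, and no test was made of them.

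In unstimulated macrophages 17 of the 38 genes had a mean of at least 1000 CPM, 14 had 100 to under 1000 CPM, 5 had 10 to under 100 CPM and 2 were under 10 CPM. Per kb of union exon length, the order of levels was led by Lyz2, the lysozyme of myeloid cells, at 14000 ± 748 CPM per kb (SD, n = 3 here and below). The lysosomal proteases Ctsd and Ctsb followed at 9010 ± 509 and 4320 ± 256 CPM per kb. The first 3 lay apart beyond their spread. The order ended with the hemoglobin-haptoglobin receptor Cd163 at 2.61 CPM per kb, the chemokine receptors Ccr2 at 1.65 and Cx3cr1 at 0.662 CPM per kb, and the scavenger receptor Marco at 0.25 CPM per kb.

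**Figure D1:**
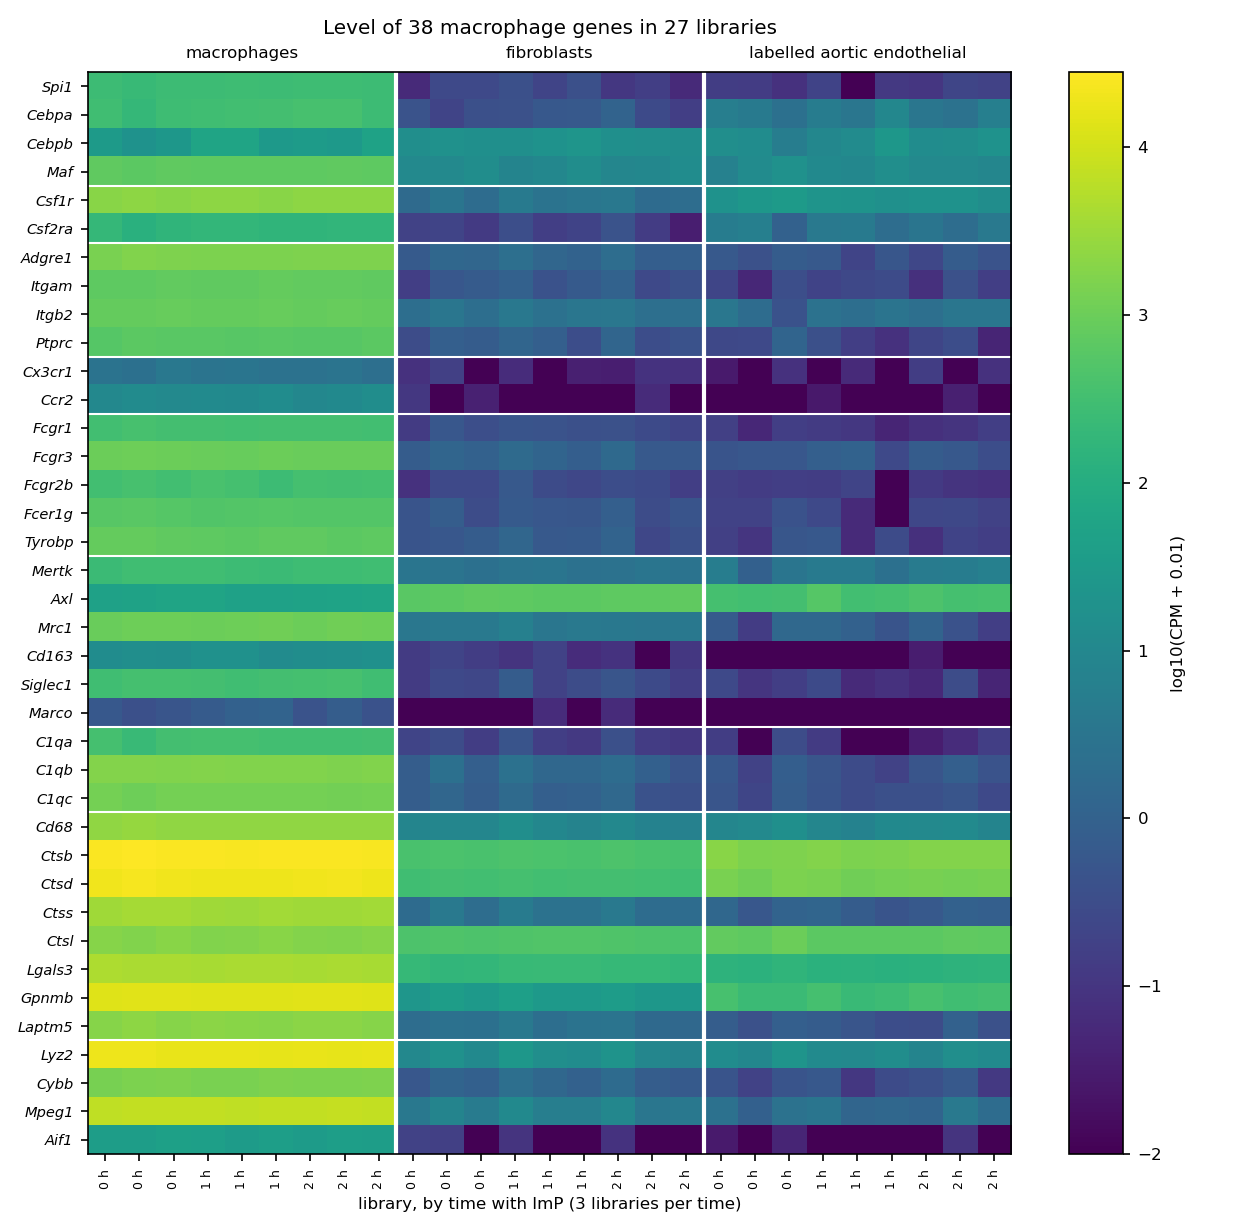
Level of the 38 macrophage genes (rows, grouped by role between white lines) in each of the 27 libraries (columns), as log10(CPM + 0.01), with macrophages, fibroblasts and cells labelled aortic endothelial side by side and times running 0, 1 and 2 h within each. The macrophage columns are bright for nearly all rows at every time, while Axl is brighter in both other cell types and Cebpb, Ctsl, Lgals3, Ctsb and Ctsd keep color in all columns.

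Among the lineage factors Cebpa, Spi1 and Maf did not differ per kb beyond their spread, at 97 ± 20.9, 92.2 ± 8.19 and 88 ± 6.51 CPM per kb of union exon. Their order depends on the length used, with 97.4, 122 and 114 CPM per kb of longest transcript. Cebpa, which drives myeloid commitment, had 289, 192 and 286 CPM in the unstimulated macrophage libraries, the second standing below the others. Spi1, the gene of PU.1, had 265, 223 and 257 CPM, and Maf, a factor of mature macrophages, 755, 664 and 758 CPM. Cebpb, a C/EBP factor that inflammatory signals induce, was lowest of the 4, at 31.6, 19.8 and 25.5 CPM. The CSF1 receptor gene Csf1r had 1980, 2210 and 2040 CPM, and Csf2ra, the GM-CSF receptor alpha chain, 200, 124 and 166 CPM. Adgre1, which encodes F4/80, led the surface genes per kb with 1450, 1680 and 1550 CPM, and the pan-leukocyte phosphatase CD45, from Ptprc, ended them with 572, 649 and 641 CPM. The chemokine receptors were low in each library: Ccr2, which marks recruited monocytes, had 10.3, 12.7 and 10.5 CPM, and Cx3cr1, the fractalkine receptor, 2.78, 2.39 and 3.79 CPM.

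The ITAM adaptor Tyrobp, which couples activating receptors such as TREM2, was highest of the Fc receptor group per kb, at 831, 844 and 746 CPM. The inhibitory Fc receptor Fcgr2b was lowest of it, at 319, 375 and 313 CPM. Of the scavenger, lectin and efferocytosis receptors, the mannose receptor Mrc1 was highest per kb, at 937, 1080 and 1040 CPM, and Marco lowest, at 0.584, 0.364 and 0.493 CPM. The phosphatidylserine receptors of efferocytosis were unequal: Mertk had 250, 289 and 297 CPM and Axl 47.9, 53.2 and 57.9 CPM. Of the chains of complement C1q, C1qb had 1740, 1750 and 1710 CPM and C1qa 345, 227 and 324 CPM, with the second library low as for Cebpa. In that library levels fell with rising GC content across 10595 genes (Spearman rho -0.25, across genes, which are not independent replicates). C1qa, Cebpa and Cebpb have 59.5, 62.6 and 67.2% GC, and the part of this trend in their low values was not tested. In the lysosomal group Ctsd had 20200, 22500 and 20800 CPM and Ctsl, the cathepsin lowest per kb, 1860, 1680 and 1940 CPM. Among the genes between these extremes, Itgam, the integrin chain that pairs with the Itgb2 product, had a mean of 744 CPM. The means were 347 CPM for the high-affinity Fc receptor gene Fcgr1, 330 CPM for the sialic acid binding lectin gene Siglec1, 1210 CPM for C1qc and 1480 CPM for Cybb. In the effector group Lyz2 had 18600, 19300 and 17300 CPM and Aif1, which encodes the actin-bundling protein IBA1, 37.7, 38.3 and 45.5 CPM.

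Unstimulated macrophages were then set against unstimulated fibroblasts, to give the size of the difference for each gene. The genes were listed as macrophage genes with earlier results of these data known. The counts of higher genes are thus descriptions and no test of the list. Of the 38 genes 36 were higher in macrophages, 1 (Axl) was lower and 1 (Cebpb) did not pass edgeR's quasi-likelihood test at an adjusted p of 0.05, in a comparison that called 68.3% of all 17038 genes, 32.7% higher and 35.5% lower. The median log2 fold change of the 38 was 9.83, against -0.07 over all genes tested. A call alone is thus common between these cell types, and the sizes are given below. All members of 7 of the 9 roles were higher: the growth factor receptors, the surface genes, the chemokine receptors, the Fc receptor group, C1q, the lysosomal genes and the effectors. Against the cells labelled aortic endothelial 37 of 38 were higher and Axl was lower, where 76.7% of all genes were called (36.1% higher, 40.6% lower). The median log2 fold change there was 10.56, or 10.28 with the 3 genes at 0 counts set to their bound, against -0.13 over all genes.

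The exception Axl (chromosome 7, 25757273 to 25788705, minus strand, GRCm38), a TAM receptor that binds the ligand GAS6, had 47.9, 53.2 and 57.9 CPM in macrophages, against 633, 651 and 728 CPM in fibroblasts and 352, 306 and 322 CPM in the cells labelled aortic endothelial. The groups did not overlap. Its log2 fold change was -3.64 ± 0.16 (SE) against fibroblasts (edgeR adjusted p = 8.58e-17) and -2.61 ± 0.154 against the cells labelled aortic endothelial (adjusted p = 2.81e-14). Its relative Mertk was higher in macrophages, with 250, 289 and 297 CPM in macrophages, against 3.18, 2.97 and 2.33 CPM in fibroblasts (log2 fold change 6.64 ± 0.321, edgeR adjusted p = 1.3e-15). Cebpb (chromosome 2, 167688915 to 167690418, plus strand, GRCm38) had 31.6, 19.8 and 25.5 CPM in macrophages and 15.5, 18.6 and 16.5 CPM in fibroblasts, a log2 fold change of 0.62 ± 0.338 (edgeR adjusted p = 0.107). All 3 macrophage libraries lay above all 3 fibroblast libraries, and with the compared groups fitted alone the gene passed (0.61, adjusted p = 0.00347). Against the cells labelled aortic endothelial it was higher by 1.18 ± 0.344 (edgeR adjusted p = 0.00338), a call lost with the runs of library codes as a block (1.08, adjusted p = 0.0811).

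Several endolysosomal genes were shared with fibroblasts at a lower level. Ctsl, which digests proteins in the lysosome of most cells, had 1860, 1680 and 1940 CPM in macrophages, against 454, 478 and 435 CPM in fibroblasts. It was higher in macrophages by 2.02 ± 0.0994 (edgeR adjusted p = 8.81e-16). The galactoside-binding lectin Lgals3 had 4460, 4210 and 4330 CPM in macrophages, against 209, 179 and 187 CPM in fibroblasts (4.52 ± 0.0899, edgeR adjusted p = 5.83e-23). Ctsb had 24900, 27900 and 25700 CPM in macrophages, against 385, 419 and 384 CPM in fibroblasts. Ctsd had 20200, 22500 and 20800 CPM in macrophages, against 291, 322 and 304 CPM in fibroblasts. Both were therefore abundant in each cell type and still higher in macrophages, by 6.06 ± 0.112 and 6.13 ± 0.106 (edgeR adjusted p = 1.7e-23 and 7.03e-24). Not every lysosomal gene was shared: the cysteine protease Ctss, which processes the invariant chain in antigen presenting cells, had 3360, 3740 and 3700 CPM in macrophages, against 1.74, 4.08 and 2.04 CPM in fibroblasts. Gpnmb and Cd68 lay between, at 0.227 and 0.361% of the macrophage level in fibroblasts, where Ctss was at 0.0731%. Gpnmb, a lysosome-stress glycoprotein gene, had 13200, 14000 and 14000 CPM in macrophages, against 25, 37.7 and 30.8 CPM in fibroblasts. Cd68, a lysosomal membrane glycoprotein gene, had 2310, 2650 and 2410 CPM in macrophages, against 8.63, 9.07 and 8.91 CPM in fibroblasts.

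In all, 19 of the 38 genes had a mean of at least 1 CPM in unstimulated fibroblasts. The others of these, besides those above, lay far below the macrophage level. Maf had 10.5, 11.1 and 14.6 CPM in fibroblasts and Mrc1 3.65, 4.1 and 4 CPM. The integrin beta 2 chain gene Itgb2 had 834, 852 and 878 CPM in macrophages, against 2.11, 3.33 and 2.1 CPM in fibroblasts. Lyz2 had 9.92, 18 and 11.2 CPM in fibroblasts, Mpeg1, which encodes the pore-forming perforin-2, 3.8, 8.15 and 4.91 CPM, and Laptm5, a lysosomal membrane gene of blood cells, 1.99, 2.54 and 2.38 CPM. Csf1r had 1.67, 3.13 and 1.85 CPM there, C1qb 0.795, 2.41 and 0.908 CPM, and Adgre1 0.646, 1.41 and 1.33 CPM. The second fibroblast library was highest for all of the last 6 named.

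**Figure D2:**
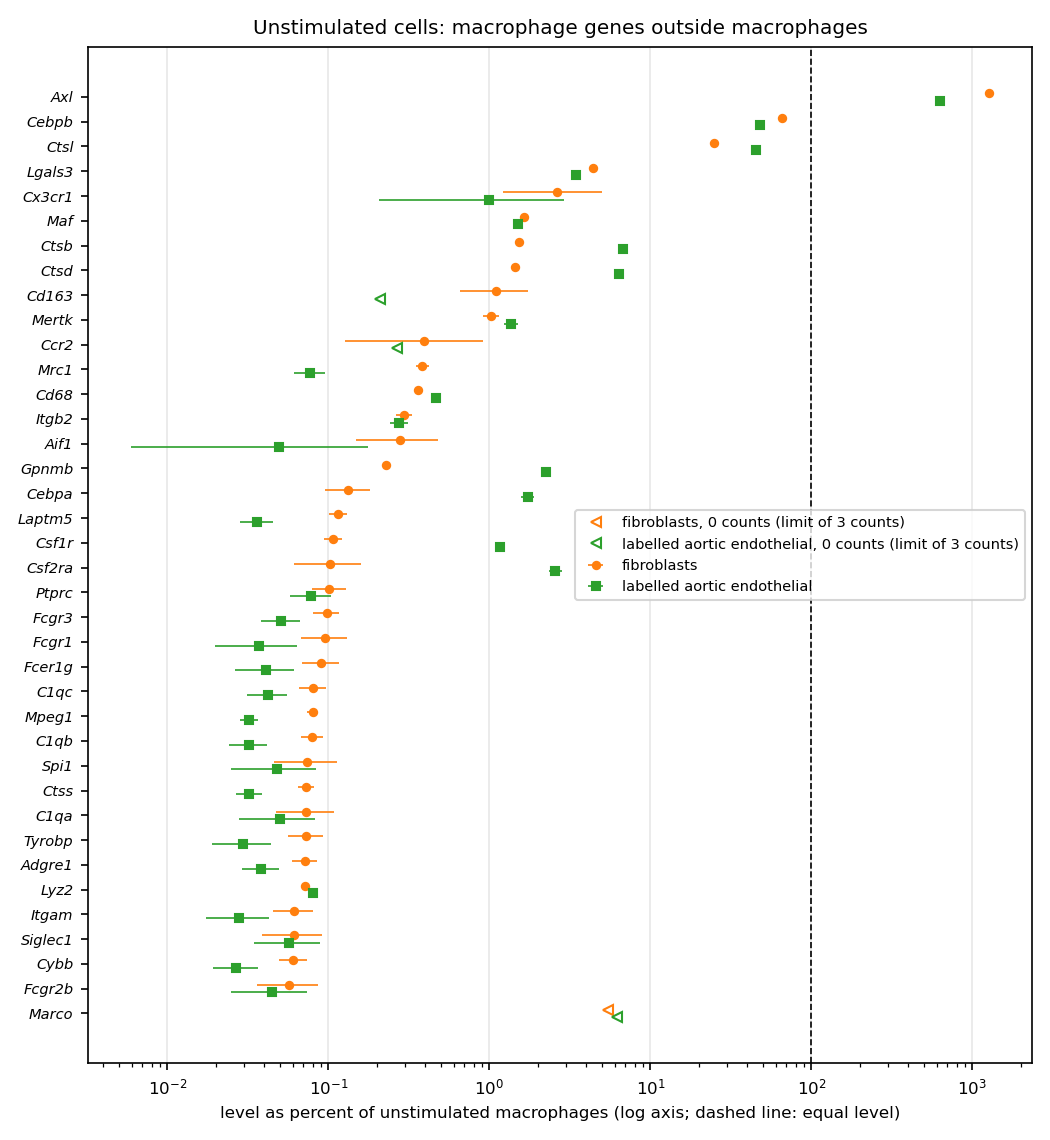
Level of each of the 38 genes in unstimulated fibroblasts (orange circles) and unstimulated cells labelled aortic endothelial (green squares) as a percent of the unstimulated macrophage level, on a log axis, with 95% Poisson intervals that cover counting error only and open triangles at the limit of 3 counts for genes with 0 counts. Axl lies right of the dashed line of equal level at 1260% and 630%, and the lower rows form a near-vertical band around 0.07% in fibroblasts.

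Expressed as a share of the macrophage level, 16 genes were at or under 0.1% in fibroblasts, 11 over 0.1 to 1%, 7 over 1 to 10%, 2 over 10 to 100% and 1 above, while 1 gene, Marco, could not be placed. The shares over 10% were 25% for Ctsl, 65.8% for Cebpb and 1260% for Axl. Marco had 0 counts in the unstimulated libraries of both other cell types and 40 counts in those of macrophages. Against 3 counts over the group, macrophages were at least 18.3-fold higher than fibroblasts and at least 16.1-fold higher than the cells labelled aortic endothelial. The 16 genes at or under 0.1% had nearly 1 share in common. It ran from 0.0572% for Fcgr2b to 0.0974% for Fcgr3, with a median of 0.0731%, while their macrophage levels ran from 249 to 18400 CPM. Lyz2, the most abundant, was at 0.0711% (1497 counts) and Spi1, the least abundant, at 0.0738% (21 counts). These 16 were selected for their low share, so the narrow range is a description.

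The share of the 16 genes differed from library to library. The median over the 16 was 0.0471, 0.103 and 0.0693% in the 3 fibroblast libraries at 0 h, 0.148, 0.0803 and 0.0815% at 1 h, and then 0.121, 0.0526 and 0.046% at 2 h. The first 1 h and the first 2 h fibroblast libraries were highest, and the values of the 3 times overlapped. In the unstimulated cells labelled aortic endothelial the median share of the same genes was 0.0396%, from 0.0268% for Cybb, the catalytic chain of the phagocyte oxidase, to 0.0802% for Lyz2. The collagen genes Col1a1 and Col1a2 stood in the macrophage libraries at 0.104 to 0.338% and 0.194 to 0.405% of their unstimulated fibroblast level. The values of Col1a2 lay above every median share of the 16 genes, and those of Col1a1 overlapped the highest of these medians. The origin of these low counts was not tested, and levels of these 16 genes in the other cell types are given as counts present in the libraries, not as expression.

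**Figure D3:**
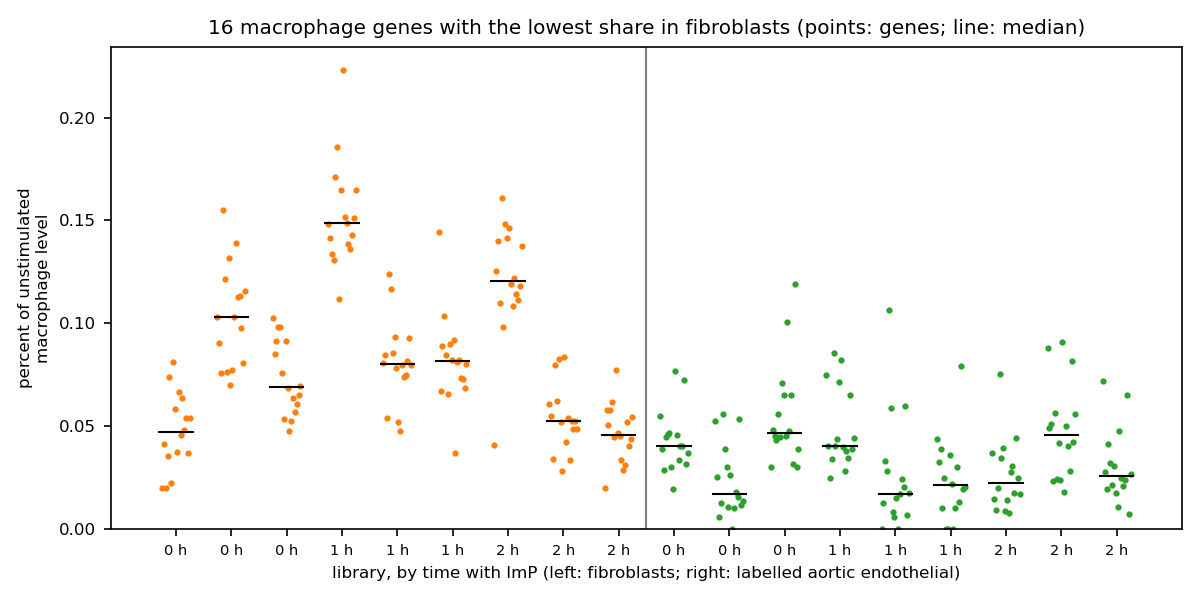
Level of the 16 genes with the lowest share in fibroblasts, as a percent of the unstimulated macrophage mean, in each fibroblast library (left, orange) and each library labelled aortic endothelial (right, green), at 0, 1 and 2 h; points are genes and lines medians. In fibroblasts the genes move together from library to library, with the highest median, 0.148%, in the first 1 h library.

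The cells labelled aortic endothelial differed from fibroblasts in 22 of the macrophage genes. Csf1r had 18.8, 26.3 and 32.4 CPM in these cells, against 1.67, 3.13 and 1.85 CPM in fibroblasts (log2 fold change 3.54 ± 0.25, edgeR adjusted p = 2.76e-12). Csf2ra had 5.02, 6.07 and 0.977 CPM, against 0.174, 0.205 and 0.114 CPM in fibroblasts (4.58 ± 0.596, adjusted p = 2.42e-07 by edgeR). Cebpa had 5.57, 4.37 and 2.33 CPM, against 0.447, 0.205 and 0.369 CPM in fibroblasts (3.6 ± 0.529, edgeR adjusted p = 1.63e-06). None of these groups overlapped, although the third unstimulated library was low for Csf2ra and Cebpa. Gpnmb had 366, 247 and 248 CPM, against 25, 37.7 and 30.8 CPM in fibroblasts (3.2 ± 0.19, adjusted p = 8.45e-14 in edgeR). Ctsb had 1960, 1460 and 1610 CPM and Ctsd 1370, 1130 and 1480 CPM, higher than in fibroblasts by 2.09 ± 0.0933 and 2.12 ± 0.0884 (edgeR adjusted p = 1.75e-16 and 4.33e-17). Ctsl, at 787, 702 and 1010 CPM, was higher by 0.87 ± 0.0966 (edgeR adjusted p = 8.92e-09). These 7 were all the genes called higher, and 15 were called lower, where 72.1% of all genes were called (37.2% higher, 34.9% lower). Of the 7, Csf1r, Cebpa, Ctsb and Ctsl overlap an annotated gene on the opposite strand. The library kit differs between these cell types, so for them a part of opposite-strand reads in the difference cannot be told apart. The count of lower genes was 5 to 8 under a stricter threshold, limma-voom, a fit of the compared groups alone or a replicate block, and 7 or 6 without the second unstimulated library labelled aortic endothelial or the second of fibroblasts. Of the 15, 9 belong to the 16 genes with the lowest share. Beside the higher level of Csf1r, pan-leukocyte Ptprc was at 0.234, 0.262 and 1.16 CPM and Tyrobp at 0.156, 0.0874 and 0.526 CPM in these cells.

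ImP was given to ask which transcripts it raises in each cell type. In macrophages none of the 38 identity genes passed edgeR's test at an adjusted p of 0.05. At 1 h 0 of 38 were called, where 3 of 13251 genes were (0.0226%), with 6 of the 38 and 693 of all genes at an unadjusted p under 0.05. At 2 h 0 of 38 were called, where 4 genes were (0.0302%), with 3 of the 38 and 815 of all genes at an unadjusted p under 0.05. For 2 h against 1 h 0 of 38 were called, where 0 genes were (0%), with 0 of the 38 and 218 of all genes at an unadjusted p under 0.05. By DESeq2 and by limma-voom, 0 of the 38 were called in each comparison. The median log2 fold change of the 38 was -0.03 at 1 h and 0.01 at 2 h, against 0 over all genes at both times. The 1 h and 2 h comparisons share their unstimulated libraries.

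A missed threshold does not show that a gene stayed the same, but the intervals were narrow. The 95% interval of the log2 fold change lay within 1.5-fold in either direction for 35 of 38 genes at 1 h and 34 of 38 at 2 h. The exceptions were Cebpb, Cebpa and Marco at both times, and Cx3cr1 at 2 h. For Csf1r the change was 0.06 ± 0.0622 at 1 h and 0.11 ± 0.0622 at 2 h (95% intervals -0.07 to 0.20 and -0.02 to 0.25). For Adgre1 it was -0.05 ± 0.0588 and -0.01 ± 0.0588 (-0.17 to 0.08 and -0.13 to 0.12). Mpeg1, at about 7040 CPM unstimulated, had -0.01 ± 0.056 and 0.05 ± 0.056 (-0.13 to 0.11 and -0.07 to 0.17).

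**Figure D4:**
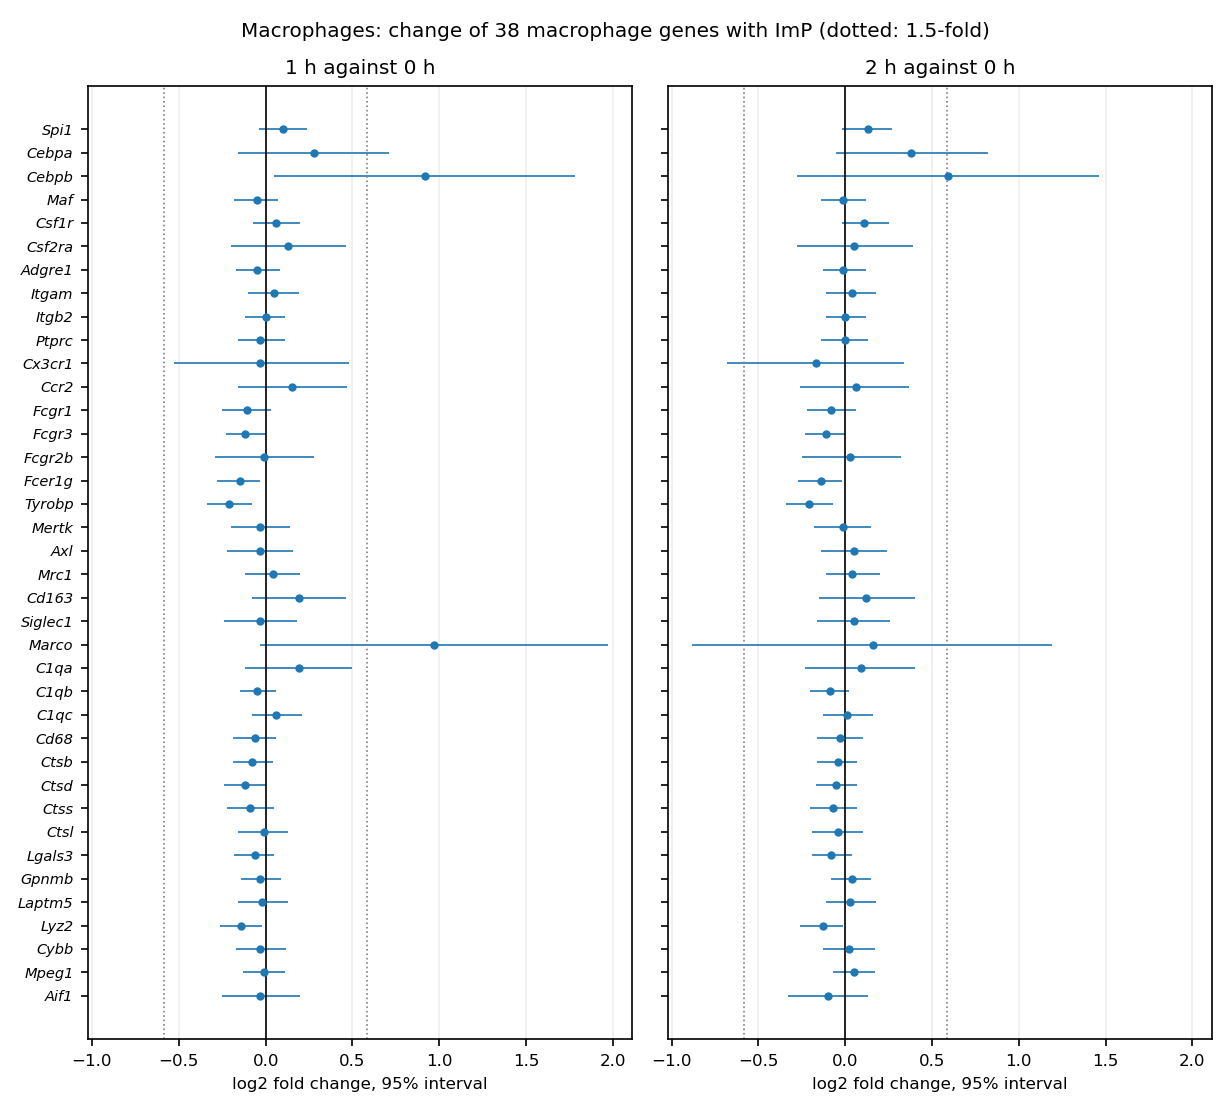
Log2 fold change of each of the 38 genes in macrophages at 1 h (left) and 2 h (right) of ImP against unstimulated macrophages, with edgeR 95% intervals; dotted lines mark 1.5-fold. Most points sit within 0.2 of 0, Tyrobp is lowest at -0.21 at both times, and Cebpb and Marco are highest at 1 h (0.92 and 0.97) with wide intervals.

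By role, 3 of the 4 lineage factors had positive values at 1 h. Cebpa had 289, 192 and 286 CPM at 0 h, 292, 306 and 333 CPM at 1 h, and then 363, 369 and 269 CPM at 2 h. The 1 h libraries lay above the unstimulated ones, the 2 h libraries overlapped them, and its change was 0.28 ± 0.186 at 1 h and 0.38 ± 0.186 at 2 h (edgeR adjusted p = 0.964 and 0.812), or 0.17 and 0.31 with the trend of every library on length and GC content removed. Spi1 had 266, 274 and 260 CPM at 1 h, and then 278, 277 and 260 CPM at 2 h, changes of 0.10 ± 0.0669 and 0.13 ± 0.0669 (edgeR adjusted p = 0.959 and 0.812). Maf had -0.05 ± 0.0593 and -0.01 ± 0.0593. Csf1r had 2290, 2200 and 2020 CPM at 1 h, and then 2230, 2300 and 2210 CPM at 2 h, and Csf2ra 182, 186 and 167 CPM at 1 h, and then 165, 172 and 172 CPM at 2 h, each within or near the unstimulated range.

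The Fc receptor and ITAM adaptor group held the smallest p-values among genes with negative values. All 5 of its members were negative at 1 h and 4 of the 5 at 2 h. Tyrobp (chromosome 7, 30413760 to 30417585, plus strand, GRCm38) had 831, 844 and 746 CPM at 0 h, 687, 679 and 727 CPM at 1 h, and then 732, 676 and 690 CPM at 2 h. Every ImP library lay under every unstimulated one, and the change was -0.21 ± 0.0616 at 1 h and -0.21 ± 0.0617 at 2 h, without passing edgeR's test (adjusted p = 0.922 and 0.744). Fcer1g, the shared gamma chain of Fc receptors, had 583, 618 and 548 CPM at 0 h, 509, 521 and 548 CPM at 1 h, and then 537, 533 and 514 CPM at 2 h. Its values met at 548 CPM, and its changes were -0.15 ± 0.0585 and -0.14 ± 0.0585 (edgeR adjusted p = 0.922 and 0.756). The low-affinity receptor gene Fcgr3 had 996, 1050 and 991 CPM at 0 h, 926, 905 and 973 CPM at 1 h, and then 949, 917 and 946 CPM at 2 h, with changes of -0.12 ± 0.0542 and -0.11 ± 0.0542 (edgeR adjusted p = 0.922 and 0.797). All 6 of these ImP values lay under the unstimulated ones. The trend on gene length of log levels relative to each gene's mean over the 9 macrophage libraries differed between libraries of the same time. Across 10595 genes Spearman rho was -0.35, -0.13 and 0.097 at 0 h, 0.068, -0.13 and 0.16 at 1 h, and then 0.073, 0.23 and 0.00019 at 2 h. The exons of Tyrobp span 667 bases. With the trend of every library on length and GC content removed, the Tyrobp change was -0.16 at 1 h and -0.15 at 2 h, that of Fcer1g -0.09 and -0.07, and that of Lyz2 -0.08 and -0.06, in a fit chosen after seeing the data. Fcgr2b had 392, 344 and 269 CPM at 1 h, and then 345, 328 and 358 CPM at 2 h, around its unstimulated values.

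Of the surface genes, Adgre1 had 1530, 1500 and 1510 CPM at 1 h, and then 1550 CPM in each library at 2 h, and Ptprc 616, 587 and 627 CPM at 1 h, and then 607, 601 and 652 CPM at 2 h. Adgre1 stayed inside its unstimulated range and Ptprc overlapped it. Ccr2 had 12.4, 11.4 and 13.6 CPM at 1 h, and then 9.61, 11.2 and 14.1 CPM at 2 h, and Cx3cr1 2.94, 3.12 and 2.73 CPM at 1 h, and then 2.67, 2.99 and 2.28 CPM at 2 h. Mrc1 had 970, 1040 and 1140 CPM at 1 h, and then 996, 1120 and 1030 CPM at 2 h. Marco, under 2 CPM in every library, had 0.682, 1.02 and 1.13 CPM at 1 h, and then 0.438, 0.767 and 0.405 CPM at 2 h. Its 1 h values lay above the unstimulated ones (0.97 ± 0.465, edgeR adjusted p = 0.922), and its interval at 1 h ran from -0.03 to 1.97. Of C1q, C1qb had 1730, 1660 and 1660 CPM at 1 h, and then 1650, 1590 and 1650 CPM at 2 h, and C1qa 359, 346 and 319 CPM at 1 h, and then 315, 307 and 329 CPM at 2 h.

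All 8 lysosomal and all 4 effector genes were negative at 1 h, by at most 0.14, as were 26 of all 38 genes. At 2 h 6 of the 8 and 2 of the 4 were negative. None of these genes was called. Ctsd had 20200, 22500 and 20800 CPM at 0 h, 19700, 19600 and 19300 CPM at 1 h, and then 20800, 20900 and 19600 CPM at 2 h. The 1 h libraries were under the unstimulated ones, with a change of -0.12 ± 0.0551 (edgeR adjusted p = 0.922), and the 2 h libraries overlapped them. Ctsl had 1720, 1770 and 1950 CPM at 1 h, and then 1760, 1710 and 1840 CPM at 2 h. Lyz2 had 18600, 19300 and 17300 CPM at 0 h, 17100, 16700 and 16200 CPM at 1 h, and then 17400, 15900 and 17000 CPM at 2 h, changes of -0.14 ± 0.0576 and -0.13 ± 0.0576 (edgeR adjusted p = 0.922 and 0.776). Aif1 had 42.9, 35 and 41.5 CPM at 1 h, and then 33.7, 41.9 and 37.8 CPM at 2 h, overlapping its unstimulated values. The 17 genes not given by library with ImP (Maf, Itgam, Itgb2, Fcgr1, Mertk, Axl, Cd163, Siglec1, C1qc, Cd68, Ctsb, Ctss, Lgals3, Gpnmb, Laptm5, Cybb and Mpeg1) had changes from -0.11 for Fcgr1 to 0.19 for Cd163 at 1 h, and from -0.08 for Fcgr1 and Lgals3 to 0.12 for Cd163 at 2 h.

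Cebpb differed between libraries of the same time. It had 31.6, 19.8 and 25.5 CPM at 0 h, 58.9, 58.4 and 28.2 CPM at 1 h, and then 33.7, 30.8 and 51.1 CPM at 2 h. The third 1 h library was near the unstimulated level and the third 2 h library near the level of the other 1 h libraries. As labelled, the change was 0.92 ± 0.359 at 1 h and 0.59 ± 0.36 at 2 h (edgeR adjusted p = 0.922 and 0.845). The same libraries stood apart for the inflammatory genes Nfkbia and Tnf, which were read as a check of how the macrophage libraries group. Nfkbia, the NF-kB inhibitor gene, had 46, 41.7 and 42.1 CPM at 0 h, 258, 248 and 47.1 CPM at 1 h, and then 51.7, 42.4 and 267 CPM at 2 h. Tnf had 17.5, 16.1 and 17.4 CPM at 0 h, 261, 255 and 21 CPM at 1 h, and then 16.5, 21.3 and 306 CPM at 2 h. Id2, a helix-loop-helix inhibitor gene, had 107, 104 and 104 CPM at 0 h, 196, 214 and 208 CPM at 1 h, and then 206, 189 and 212 CPM at 2 h. It parts all 6 ImP libraries from the unstimulated ones, and since its 1 h and 2 h levels overlap it cannot tell those times apart. The library codes run 1 h before 2 h in the other runs, and in the third macrophage run the 1 h library has the later code of the pair (23 against 22).

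Without the third macrophage libraries of 1 h and of 2 h, Cebpb rose by 1.19 ± 0.165 at 1 h and passed edgeR's test (adjusted p = 0.0141). It was the 1 of 38 called, where 125 of 13465 genes were (0.928%, with 0.824% higher and 0.104% lower). The third libraries were left out with their values known, and Cebpb itself parts them. Its pass in this fit is thus a description and not independent support. At 2 h 0 of 38 were called, where 16 genes were (0.119%; 0.111% higher and 0.00743% lower), with 3 of the 38 and 1043 of all genes at an unadjusted p under 0.05. For 2 h against 1 h 0 of 38 were called, where 89 genes were (0.661%; 0.052% higher and 0.609% lower), with 2 of the 38 and 747 of all genes at an unadjusted p under 0.05. The Cebpb value there was -0.86 (edgeR adjusted p = 0.173), and it passed as lower at 2 h only when the trend of every library on length and GC content of genes was also removed (-0.76, adjusted p = 0.000385). Tyrobp remained at -0.24 at 1 h and -0.20 at 2 h without passing (edgeR adjusted p = 0.216 and 0.536).

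**Figure D5:**
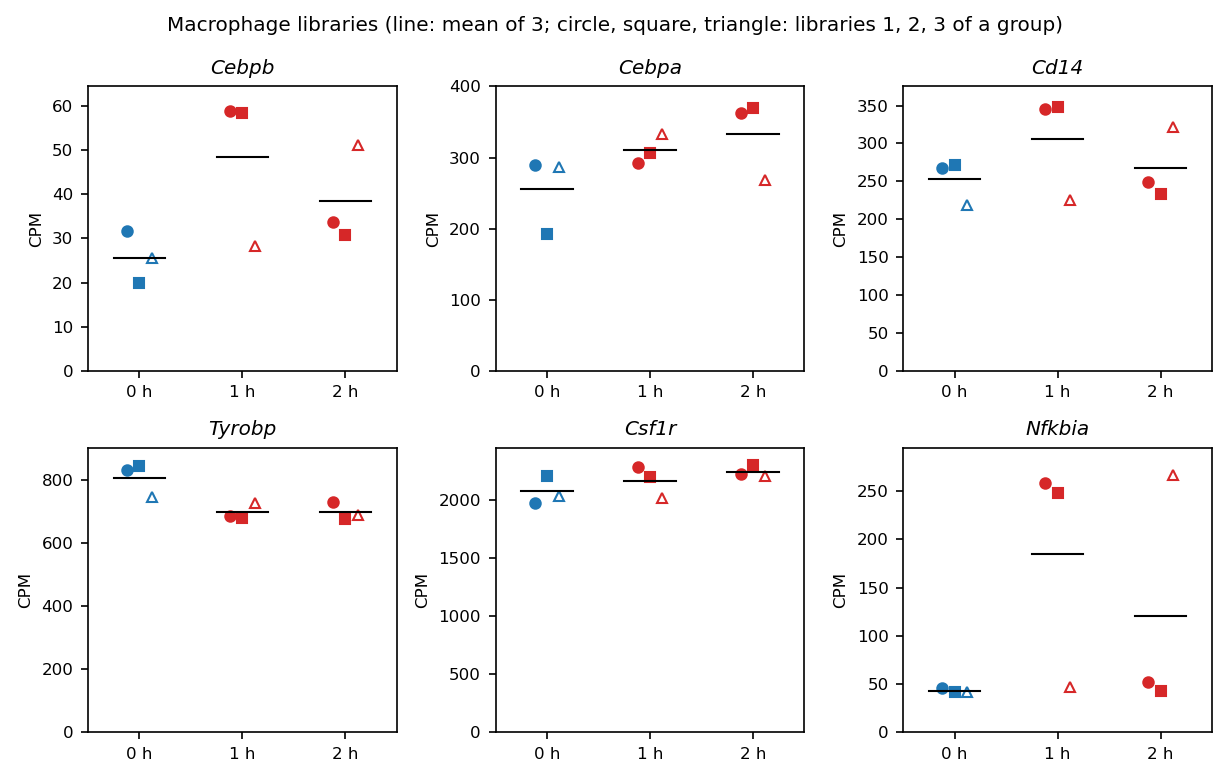
Level in CPM of Cebpb, Cebpa, Cd14, Tyrobp, Csf1r and Nfkbia in each macrophage library at 0 h (blue, unstimulated) and 1 and 2 h (red, ImP), with lines at group means and open triangles for the third library of each group. For Cebpb, Cd14 and Nfkbia the third 1 h library sits near the unstimulated libraries and the third 2 h library near the other 1 h libraries, whereas Csf1r is level across all 9.

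Among 75 other macrophage genes and CSF1R ligands, listed by function and with earlier results of these data known, 0 of the 74 tested passed edgeR's test at 1 h or 2 h as labelled, with 5 and 8 at an unadjusted p under 0.05. Of all 13251 genes 3 and 4 were called, with 693 and 815 at an unadjusted p under 0.05. Their median was -0.02 at 1 h and -0.01 at 2 h. The smallest p-values were those of Csf1, the ligand of the CSF1 receptor, with 21.4, 25.1 and 22.2 CPM at 0 h, 27.2, 31.8 and 27.1 CPM at 1 h, and then 27.5, 29.5 and 30.7 CPM at 2 h. All 6 ImP libraries lay above the unstimulated ones, with changes of 0.32 ± 0.0954 and 0.35 ± 0.0956 (edgeR adjusted p = 0.922 and 0.744). Next at 2 h was the Src family kinase gene Fgr, at 0.84, 0.894 and 0.91 CPM at 0 h, and then 1.68, 2.14 and 1.92 CPM at 2 h (1.11 ± 0.353, edgeR adjusted p = 0.744). The lipopolysaccharide co-receptor gene Cd14 had 268, 271 and 219 CPM at 0 h, 345, 348 and 225 CPM at 1 h, and then 249, 233 and 321 CPM at 2 h, parted by library as Cebpb was. Without the third libraries of 1 h and of 2 h it was the 1 gene of this list called, higher at 1 h by 0.45 ± 0.0844 and lower at 2 h than at 1 h by -0.52 ± 0.0935 (edgeR adjusted p = 0.0214 and 0.0201). In these 2 comparisons 0.928% and 0.661% of all genes were called. Since its own values part the libraries left out, these calls too are descriptions.

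In the other cell types ImP moved none of the identity genes past the threshold. Of the 32 genes tested in fibroblasts 0 were called by edgeR in any of the 3 comparisons, where 0% of all 14066 genes were, with 1, 0 and 3 of the 32 at an unadjusted p under 0.05 for 1 h and 2 h against 0 h and for 2 h against 1 h. Their median log2 fold change in fibroblasts was 0.33 at 1 h (30 of 32 positive), -0.03 at 2 h and -0.35 for 2 h against 1 h (30 of 32 negative), where the medians of all genes were 0.01, -0.01 and -0.02. The 1 h libraries enter both of the larger values. For the 16 genes of lowest share these medians were 0.42, -0.04 and -0.50, and for the other 16 tested 0.20, -0.02 and -0.22. The first 1 h fibroblast library had the highest share of those low genes, 0.148% as given above, and its part in these medians was not tested. Of the 24 tested in the cells labelled aortic endothelial 0 were called, where 0% of all 14779 genes were, with 1, 1 and 0 at an unadjusted p under 0.05 and medians of -0.14, -0.04 and 0.05, against 0, 0.01 and 0 over all genes. By DESeq2 and by limma-voom, 0 were called in both cell types. Unlike in macrophages, most intervals were wide. In fibroblasts the edgeR interval lay within 1.5-fold in either direction for 8 of 32 genes at 1 h and 8 of 32 at 2 h. For 2 h against 1 h it did so for 7 of 32. In the cells labelled aortic endothelial it did so for 5 of 24 in each comparison. For the other genes a larger change is not excluded. The difference of the ImP change between macrophages and fibroblasts was called for 0 of 38 genes by edgeR at 1 h and 2 h, where 0.00587% and 0.0117% of all genes were called, with 2 and 1 of the 38 at an unadjusted p under 0.05. The interval of this difference lay within 1.5-fold for 5 of 38 genes at each time. The missed calls thus do not show that the change was equal in these cell types.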

How the data were processed

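The values are counts per gene symbol from bulk RNA sequencing of 27 libraries. The build named is mm10/GRCm38.p6, with STAR, RSEM, cutadapt, FastQC, DESeq2 and R 4.3.2 as the tools named, per the submitters' processing notes, and the settings and the strand of counting are not given in the sources used here. RSEM is the only counter named, so the values deposited by the authors were taken to be its expected counts; all were whole, so rounding changed none. Libraries were fitted within its cell type (9 libraries) for ImP, and in 1 model of all 27 for cell types and differences of change, in R 4.3.3 with edgeR 4.0.16. Genes were filtered by filterByExpr (minimum count 10), scaled by TMM and tested by the two-sided quasi-likelihood F-test with robust dispersions, Benjamini-Hochberg over all genes tested, threshold 0.05. Levels are CPM with TMM over all 27 libraries; errors are SD over 3 libraries or edgeR SE. Lengths and positions come from GENCODE M21, which matched 24466 symbols, and promoters from RefSeq. Poisson intervals and floors of 3 counts cover counting error only. No pair of replicates held the same counts.

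The members and lists were chosen with earlier results of these data known. Every member is accounted for. Given by library are members called in a macrophage comparison as labelled or without the third macrophage libraries of 1 h and of 2 h, the highest and lowest per kb in each role, and members at or above 1 CPM in fibroblasts; of the other macrophage genes, those called or up to 3 with the smallest p; Nfkbia, Tnf and Id2 are a check of the groups. The 16 genes of lowest share, and the members with small p-values or wide intervals given by library, were chosen after their values were seen. The third macrophage libraries of 1 h and of 2 h were likewise left out with their values known. Replicates are numbered by accession order. Runs of library codes were not taken as pairs, since libraries of the same run correlated weakly or not at all. Alternatives were DESeq2 1.42.0, limma-voom 3.58.1, RLE scaling, library totals, other filters, the compared groups alone, the code runs as a block, a threshold of 0.01, the longest transcript for length, each library left out, and, chosen after seeing the data, removal of each library's trend on length and GC content with splines of 4 degrees of freedom. The tests were checked on simulated data.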

Additional observations from a re-analysis of the deposited data

How the results depend on the processing

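Of 466 alternative values of 28 counts of called genes, 457 stayed within 1.5 times the value given and 9 did not. No result reversed. Every count for ImP and for differences of change was 0 as labelled, where a range of 1.5 times has no width. Most of the values that stayed are of this kind, so their number is no measure of robustness. Without the third macrophage libraries of 1 h and of 2 h the count of genes called higher at 1 h was 1 (Cebpb), also with the length and GC trend removed (Cebpb 0.96, edgeR adjusted p = 6.95e-06), where 1 was called lower at 2 h against 1 h; the cause was not tested. With that trend removed and those libraries left out, Cd14 was at 0.45 and -0.47 (edgeR adjusted p = 0.00552 and 0.0115). The count called lower in the cells labelled aortic endothelial against fibroblasts, 15 as reported, was 7 at a threshold of 0.01, 8 with limma-voom, 5 with the compared groups alone and 6 with the replicate block. Leaving out 1 library moved it to 6 to 15, with 7 without the second unstimulated library labelled aortic endothelial and 6 without the second unstimulated fibroblast library. The block also lowered the count called higher in macrophages than in the cells labelled aortic endothelial to 35, from 37, without Cebpb (1.08, edgeR adjusted p = 0.0811) and Marco (edgeR adjusted p = 0.0587), and raised the count higher in those cells than in fibroblasts to 8, from 7, with Cd68; the other counts were equal under it. Deviations of libraries with the same code run correlated by -0.193 to 0.0947 in macrophages. The range was -0.05 to 0.163 in fibroblasts and -0.0323 to 0.137 in the cells labelled aortic endothelial. In fibroblasts the mean was 0.0539, against -0.0269 between runs, and in the cells labelled aortic endothelial 0.0425, against -0.0204. These correlations were weak, so the runs were not taken as pairs and the block is given as an alternative. With the longest transcript as length, the level per kb was 108 for Ptprc, 5510 for Ctsb, 3710 for Gpnmb, 94.8 for Fcgr2b and 9960 for Ctsd. Depth limits Marco, Cx3cr1, Ccr2 and Cd163 outside macrophages, where each has few counts or none.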

Other observations

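Both ligands of the CSF1 receptor were lower in macrophages than in either other cell type, whereas the receptor gene was higher. Csf1 had 21.4, 25.1 and 22.2 CPM in unstimulated macrophages, against 332, 399 and 402 CPM in fibroblasts and 2350, 2090 and 1530 CPM in the cells labelled aortic endothelial. It was lower in macrophages by -4.03 ± 0.162 and -6.42 ± 0.181 on the log2 scale (edgeR adjusted p = 1.45e-17 and 8.32e-21). Il34, the second ligand of that receptor, had 0.11, 0 and 0.0379 CPM in unstimulated macrophages, against 22.4, 20.7 and 21.5 CPM in fibroblasts and 8.12, 5.99 and 9.47 CPM in the cells labelled aortic endothelial, at 4 counts in all 3 macrophage libraries. The groups did not overlap for either ligand.

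Of the 75 other macrophage genes and ligands, 73 were higher and these 2 ligands lower in macrophages than in fibroblasts, where 32.7% of all genes were called higher. The 73 were listed as macrophage genes, so their count too is a description. By function, 25 of 25 further surface receptor genes had a median log2 fold change of 10.10, 16 of 16 lysosomal genes 4.25, and 4 of 4 MHC class II genes 6.37. The lysosomal genes had the lowest median of the 6 lists of other macrophage genes, and no test was made of that order.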
